A study of Homo sapiens with 8 samples.

Results

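The 48 genes described here encode the machinery that licenses, starts and carries out DNA replication, with the enzymes that supply deoxynucleotides and a few regulators and chromatin factors of S phase. They were taken as a list of gene symbols, and all 48 were measured among 19775 genes. Where several probe sets carried a gene's symbol and no other, the brightest on average across the 8 arrays stood for the gene. Of the 48 genes, 10 belong to origin licensing, 6 to helicase activation, 8 to the polymerases and primase, 5 to the sliding clamp and its loader, 5 to single-strand binding and Okazaki fragment maturation, 5 to nucleotide synthesis, 6 to chromatin, repair and histone mRNA, and 3 to G1/S control.

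RNA came from HuCCT1, an established human bile duct cancer (cholangiocarcinoma) line, on 8 Affymetrix arrays. A control shRNA was carried by 4 samples and an shRNA numbered 1 against YAP1 by the other 4. All 8 samples had doxycycline at 100 ng/ml for 3 days before seeding to switch the shRNA on, so the control shares the drug and differs in the hairpin. The series title names overexpression of YAP, while the design and sample names describe knockdown. A single hairpin in a single line was used, and the labels do not say whether the cells were a clone or whether each replicate was a culture of its own. P-values thus rest on the spread among these arrays, some or all of which may be technical. Whole-culture RNA was measured, so fewer cells in S phase and less RNA per cell cannot be told apart.

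Replication is prepared in G1, when ORC, CDC6 and CDT1 load the ring of MCM2 to MCM7 on origins. In S phase MCM10, CDC45 and the GINS complex turn that ring into the active helicase, polymerase alpha with primase lays down primers, and RFC loads PCNA so that polymerases delta and epsilon can extend them. Most of these genes are transcribed in a wave at the G1/S border, driven by E2F factors that RB family proteins hold back until cyclin-dependent kinases release them. YAP, the coactivator silenced by the Hippo pathway, acts through TEAD factors and is best known for driving proliferation and organ growth.

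The promoters of E2F1, MCM6, POLA2 and TYMS are shown because they carry the E2F-type motif by which such genes are usually recognised. The first pair held at least 2 matches close together, and the second pair passed the test given below in opposite directions. Sequences are from RefSeq (GRCh38.p14), 5′ to 3′ on the strand of the gene, and end before the transcription start; capitals mark E2F-type matches, which overlap in MCM6.

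E2F1, minus strand, chr20:33686386-33686445: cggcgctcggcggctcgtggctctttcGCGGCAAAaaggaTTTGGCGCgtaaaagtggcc
MCM6, minus strand, chr2:135876512-135876605: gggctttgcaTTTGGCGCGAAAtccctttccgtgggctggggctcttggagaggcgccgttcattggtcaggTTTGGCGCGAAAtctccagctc
POLA2, plus strand, chr11:65261883-65261942: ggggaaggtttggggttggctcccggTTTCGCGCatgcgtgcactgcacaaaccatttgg
TYMS, plus strand, chr18:657588-657647: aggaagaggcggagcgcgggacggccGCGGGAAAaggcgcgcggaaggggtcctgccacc

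The E2F-type motif searched was TTTCCCGC, TTTCGCGC, TTTGCCGC or TTTGGCGC on either strand, in the 250 bases before the start. Promoters were on hand for 41 of the 48 genes, of which 16, or 39.0%, held a match, against 3.40% of all 27305 genes with a promoter in the table. The CCAAT box (CCAAT on either strand) was found for 24 of the 41 genes, or 58.5%, against 37.0% of all genes. The TEAD-type motif GGAATG, also on either strand, was found for 7, or 17.1%, against 14.3% of all genes. A match describes the letters in this window and no more, and a gene with several promoters counts once if any of them matched.

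The knockdown was seen in every sample. YAP1 stood at 12.59, 12.61, 12.77 and 12.60 on the log2 scale in control replicates 1 to 4, and at 10.40, 10.55, 10.51 and 10.54 in the YAP shRNA replicates. The groups were far apart, with a fall of 4.41-fold (log2 fold change -2.14, standard error 0.056, limma adjusted p = 6.15e-07; two-sided exact permutation p = 0.0286, the smallest that 4 against 4 allows). Array medians over all probe sets differed by no more than 0.034. The 7 epithelial and biliary markers had mean levels of 12.60 to 14.18. Of these, CDH1 rose by 0.33 and KRT19 by 0.15 (limma adjusted p = 0.00038 and 0.014). KRT7, SOX9, KRT8 and KRT18 stood at -0.08, -0.07, -0.07 and -0.05 and EPCAM at 0.01, none of them called. For KRT7 every YAP shRNA array was below every control array. The median log2 fold change of the 7 was -0.05. Their summed log2 levels were 93.69 to 93.83 in control arrays and 93.93 to 94.01 in YAP shRNA arrays, without overlap. Of 15 markers of hepatocytes, leukocytes, endothelium and fibroblasts, 14 had mean levels of 3.12 to 6.76. The other was COL1A1 at 8.21, which rose by 0.52 (limma adjusted p = 0.0032), while PTPRC fell by 0.22 (limma adjusted p = 0.041). Summed over the 15 markers, the log2 levels ranged from 77.4 to 80.3 in control arrays and from 78.8 to 81.7 in YAP shRNA arrays. For the 4 fibroblast markers among them the sums were 23.2 to 24.1 and 24.4 to 24.8, without overlap. The part of these markers in the results below was not tested.

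With YAP1 down, the replication genes did not move as a block. TYMS, PRIM2, CDC6, SLBP, RFC5 and MCM10 fell, and POLA2, ORC1 and GINS3 rose, in a limma fit over all genes with an adjusted p below 0.05. These 9 of 48 make 18.8%, beside 16.7% of all 19775 genes, and the 6 falls make 12.5%, beside 7.17% of all genes. Of the 48 genes, 47 lie above the median level of all genes, and among genes above that level 26.6% changed and 11.4% fell. Without YAP shRNA replicate 1, 2 or 4, 5 members (10.4%) changed in each case, where 12.9%, 12.4% and 12.0% of all genes changed. Falls numbered 3 without YAP shRNA replicate 1, and rises 1 without control replicate 2, YAP shRNA replicate 2 or YAP shRNA replicate 4. In these fits the share of members that changed is thus near that of genes in general, and with all 8 arrays below that of brighter genes. Not every alternative fit gave this. With a mean-variance trend 31.25% of members changed, beside 21.5% of all genes. A replicate block gave 4.17% of members, beside 10.6% of all genes. The median log2 fold change of the 48 was -0.01, where that of all genes was 0.01, and 25 values were negative and 23 positive.

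Changes were small. In linear terms TYMS, the steepest fall, fell by 19.3% and POLA2, the steepest rise, rose by 17.2%, both on the deposited log2 scale turned back to a ratio. For the 39 members that did not pass, the 95% intervals of the log2 fold change reached no lower than -0.33 and no higher than 0.44, with a median half-width of 0.11. An unadjusted p under 0.05 was met by 19 members, 11 lower and 8 higher, and by 29.3% of all genes, 2518 lower and 3267 higher. Of the 9888 genes above the median level, 4266 met it, 1873 lower and 2393 higher. The 4 YAP shRNA arrays all lay below the 4 control arrays for 13 members (27.1%), where 10.9% of all genes and 18.1% of brighter genes did so, and all above for 6 (12.5%), where 13.4% of all genes and 22.1% of brighter genes did so.

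**Figure D1:**
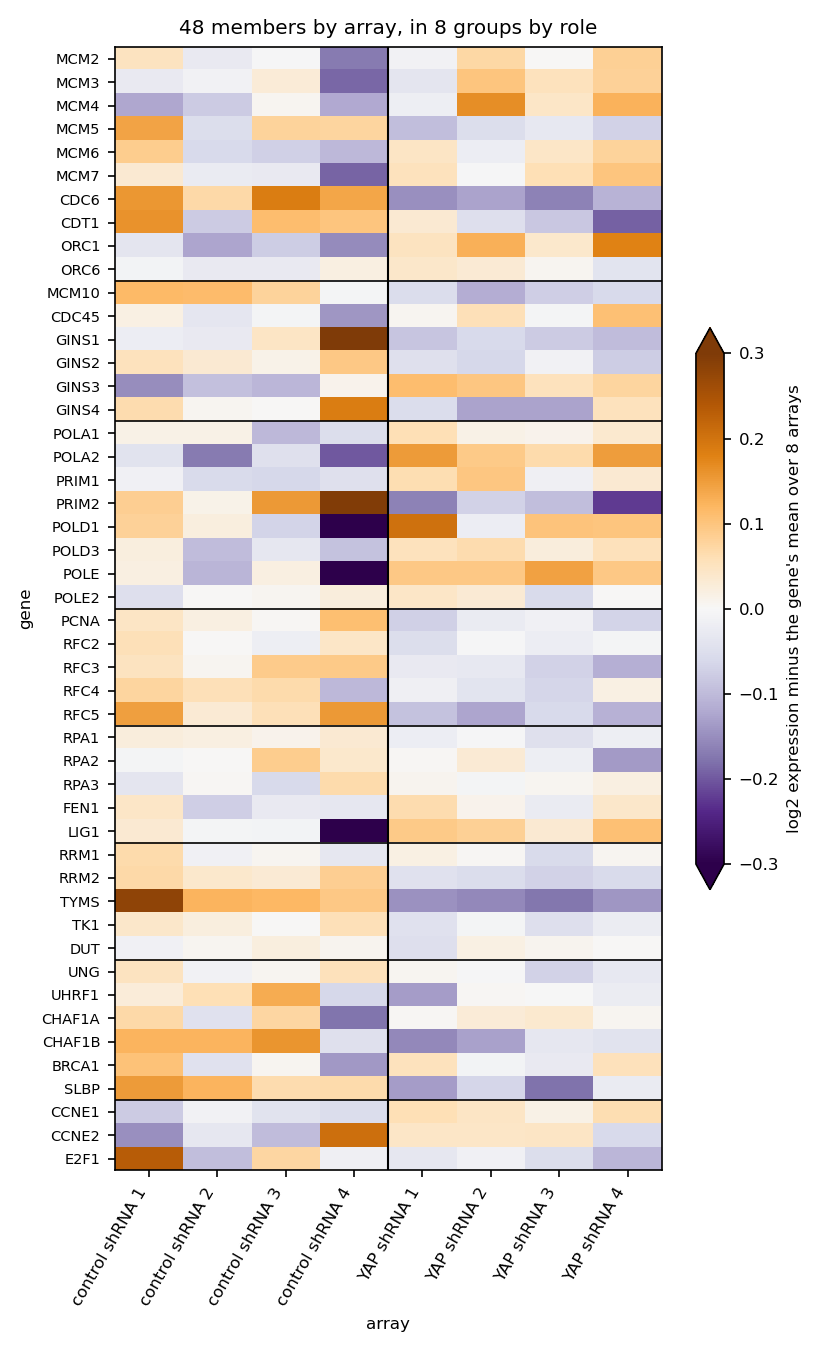
Log2 expression of the 48 genes (rows, in 8 groups by role divided by horizontal lines, from licensing at the top to G1/S regulators at the bottom) on the 8 arrays (columns, control shRNA left of the vertical line), each minus the gene's mean over the 8 arrays; the colour scale ends at 0.3 and -0.3. CDC6, TYMS and RFC5 are lower on all 4 YAP shRNA arrays, POLA2 and ORC1 higher, and control replicate 4 is far from the other controls for POLD1, POLE, LIG1 and GINS1.

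Among the licensing genes, CDC6 and ORC1 changed in opposite directions. CDC6, the ATPase that works with ORC to load the MCM ring, stood at 10.84, 10.76, 10.87 and 10.83 in control replicates 1 to 4 and at 10.54, 10.56, 10.52 and 10.58 in YAP shRNA replicates 1 to 4. Every YAP shRNA array was below every control array. CDC6 fell by 0.27 (standard error 0.039, 95% interval -0.36 to -0.19, limma adjusted p = 0.0018). Its other probe set gave -0.11 and was not called in a fit over all probe sets (limma adjusted p = 0.18), and it is the one left when probe sets ending in _x_at or _s_at, which can bind related transcripts, are set aside (-0.11, limma adjusted p = 0.17).

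ORC1, the subunit of the origin recognition complex that comes and goes with the cell cycle, stood at 8.67, 8.58, 8.63 and 8.55 in control arrays and at 8.76, 8.83, 8.74 and 8.88 in YAP shRNA arrays. The groups did not overlap. ORC1 rose by 0.20 (standard error 0.048, limma adjusted p = 0.023), a call lost without control replicate 2, YAP shRNA replicate 2 or YAP shRNA replicate 4. ORC6, the small subunit outside the ORC core, stood at 0.02 (95% interval -0.06 to 0.10).

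The MCM helicase genes did not pass. MCM2, MCM3, MCM4, MCM6 and MCM7 had log2 fold changes of 0.07, 0.10, 0.16, 0.07 and 0.10, and MCM5 one of -0.12. The upper ends of the intervals for the 5 positive ones lay between 0.19 and 0.28. MCM4 came nearest to the threshold (limma adjusted p = 0.080), with 12.60, 12.64, 12.72 and 12.60 in controls and 12.70, 12.88, 12.76 and 12.84 with the YAP shRNA, so that the lowest YAP shRNA array lay below the highest control array. The 716 measured genes of chromosome 8, which carries MCM4, had a median of 0.07. The other members on that chromosome, GINS4 and CCNE2, stood at -0.13 and 0.04. In MCM2, MCM3, MCM6 and MCM7, control replicate 4 was the lowest array of all 8, at 11.04, 11.21, 11.76 and 11.80. MCM5 was called lower without control replicate 2, but its other probe set stood at -0.01 in the fit over all probe sets (limma adjusted p = 0.91). CDT1, the loading partner of CDC6 that geminin inhibits, stood at -0.15 (limma adjusted p = 0.20), and its second probe set at 0.07.

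Helicase activation genes also split. MCM10, which helps the loaded helicase to unwind, stood at 10.73, 10.73, 10.69 and 10.61 in control arrays and at 10.56, 10.50, 10.54 and 10.55 in YAP shRNA arrays. Groups did not overlap, with control replicate 4 nearest to the YAP shRNA arrays. MCM10 fell by 0.15 (standard error 0.041, limma adjusted p = 0.039), a call lost without any 1 of the 7 arrays other than control replicate 4. All 3 of its probe sets were negative, and none was called in the fit over all probe sets.

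GINS3, a subunit of the 4-part GINS ring, stood at 11.53, 11.59, 11.57 and 11.69 in control arrays and at 11.79, 11.77, 11.73 and 11.75 in YAP shRNA arrays. All YAP shRNA arrays were above all control arrays. GINS3 rose by 0.17 (standard error 0.044, limma adjusted p = 0.032), and both of its probe sets were called higher in the fit over all probe sets. Its gene-level call was likewise lost without any 1 of the 7 arrays other than control replicate 4. The other GINS subunits were on the negative side: GINS1 at -0.16, GINS2 at -0.10 and GINS4 at -0.13, none of them past the test. GINS1 and GINS2 were lower on every YAP shRNA array than on any control. For GINS1 control replicate 4 stood apart at 12.28, where the other controls lay at 11.94 to 12.01. CDC45, the helicase cofactor, stood at 0.08.

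The polymerase and primase genes were positive in 7 of 8 cases, yet 1 rose and 1 fell. POLA2 and PRIM2 encode subunits of the same primosome, the accessory subunit of polymerase alpha and the large subunit of primase. POLA2 stood at 10.16, 10.03, 10.15 and 10.00 in control arrays and at 10.35, 10.29, 10.27 and 10.35 in YAP shRNA arrays. It was higher on every YAP shRNA array than on any control and rose by 0.23 (standard error 0.050, limma adjusted p = 0.015). A second POLA2 probe set rose by 0.47 and was also called in the fit over all probe sets, and the third stood at 0.09.

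PRIM2 stood at 10.87, 10.80, 10.94 and 11.08 in control arrays and at 10.62, 10.71, 10.69 and 10.56 in YAP shRNA arrays. The groups did not overlap, and control replicate 4 was the highest. PRIM2 fell by 0.28 (standard error 0.067, limma adjusted p = 0.023), a call lost without control replicate 3, YAP shRNA replicate 1 or YAP shRNA replicate 4. It had a single probe set, and RefSeq lists a related copy of the gene, PRIM2BP, on the same chromosome, so the share of its signal that comes from PRIM2 is uncertain. PRIM1, the catalytic primase subunit, and POLA1, the catalytic subunit of polymerase alpha, stood at 0.09 and 0.06.

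Among the members, no gene of the replicative polymerases delta and epsilon passed. POLD4, a subunit outside the members, is given below. POLE, the leading-strand polymerase, stood at 7.54, 7.41, 7.54 and 7.16 in control arrays and at 7.61, 7.61, 7.66 and 7.61 in YAP shRNA arrays, without overlap (log2 fold change 0.21, 95% interval 0.03 to 0.40, limma adjusted p = 0.12). POLD1, the catalytic subunit of polymerase delta, stood at 0.19, with the widest interval of the list, -0.05 to 0.44. Control replicate 4 was the lowest array for both, at 7.16 and 6.77. POLD3 stood at 0.10 with groups that did not overlap, and its dimmer probe set at -0.10, while POLE2 stood at 0.01.

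Clamp and clamp loader genes were all negative, and RFC5 fell. RFC5, a small subunit of the loader, stood at 12.65, 12.54, 12.56 and 12.66 in control arrays and at 12.41, 12.38, 12.44 and 12.39 in YAP shRNA arrays. The highest YAP shRNA array was below the lowest control. RFC5 fell by 0.19 (standard error 0.043, limma adjusted p = 0.015), a call lost without YAP shRNA replicate 2, and its other 2 probe sets gave -0.14 and -0.11. RFC3 and PCNA, the sliding clamp itself, did not overlap between groups either, at -0.12 and -0.09, but did not pass (limma adjusted p = 0.079 and 0.17). The dimmest of 3 RFC3 probe sets was called lower in the fit over all probe sets, at -0.33. RFC4 and RFC2 stood at -0.05 and -0.04. The group's median per array was 0.019 to 0.092 above the gene means in control arrays and 0.029 to 0.067 below them in YAP shRNA arrays.

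None of the 5 members of single-strand binding and Okazaki maturation changed. The RPA subunits, which coat unwound DNA, stood at -0.04, -0.06 and 0.01 for RPA1, RPA2 and RPA3, and FEN1, the flap nuclease, at 0.04. LIG1, the ligase that seals Okazaki fragments, had the largest value of the group at 0.16 (95% interval -0.03 to 0.34, limma adjusted p = 0.24). It stood at 7.89, 7.85, 7.84 and 7.52 in control arrays and at 7.95, 7.94, 7.89 and 7.96 in YAP shRNA arrays. The groups met at 7.89, and control replicate 4 was far below the rest. Leaving that array out brought LIG1 to its lowest value over the alternatives, 0.07.

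In nucleotide synthesis TYMS fell, and the other 4 genes were negative without passing. TYMS, thymidylate synthase, makes the thymidine nucleotide and is the target of fluorouracil. It stood at 11.63, 11.48, 11.47 and 11.45 in control arrays and at 11.21, 11.20, 11.18 and 11.21 in YAP shRNA arrays. No array of either group came near the other group, and control replicate 1 was the highest. TYMS fell by 0.31 (standard error 0.048, 95% interval -0.42 to -0.20, limma adjusted p = 0.0029), the largest change in the list. A second TYMS probe set fell by 0.25 and was called in the fit over all probe sets, while the dimmest of the 3 stood at -0.03. With the mean of the 3, TYMS was not called (-0.20, limma adjusted p = 0.12). The 303 measured genes of chromosome 18, which carries TYMS, had a median of -0.04.

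RRM2, the regulated subunit of ribonucleotide reductase, stood at 13.24, 13.21, 13.20 and 13.26 in control arrays and at 13.13, 13.12, 13.10 and 13.12 in YAP shRNA arrays. The groups did not overlap, but the difference of -0.11 just missed the threshold (limma adjusted p = 0.055), and its second probe set fell by 0.15 in the fit over all probe sets. TK1, the salvage thymidine kinase, stood at -0.06, also without overlap. RRM1, the large reductase subunit, and DUT, which removes dUTP, stood at -0.01 and -0.01, with intervals from -0.10 to 0.07 and from -0.09 to 0.07.

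**Figure D2:**
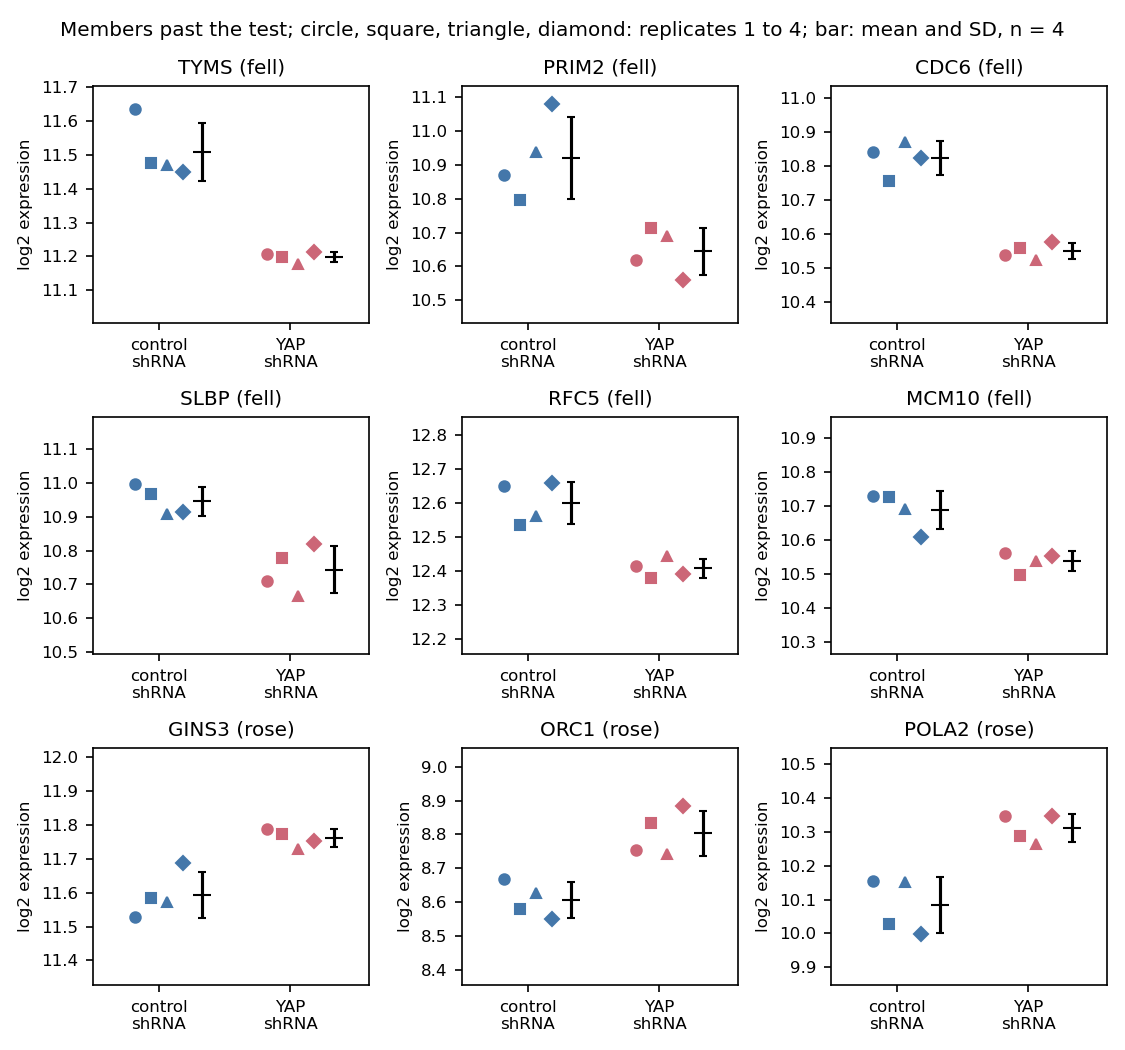
Log2 expression (vertical axis, spanning 0.7 in every panel) of the 9 genes that passed the test, for 4 control shRNA and 4 YAP shRNA arrays; marker shapes give replicates 1 to 4, and the bar beside each group its mean and SD. TYMS, CDC6 and RFC5 show the clearest gaps between groups among the falls and POLA2 among the rises, while MCM10 and GINS3 lie close together.

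SLBP was the gene of the chromatin, repair and histone group that changed. SLBP, which binds the stem-loop of replication-dependent histone mRNAs, stood at 11.00, 10.97, 10.91 and 10.91 in control arrays and at 10.71, 10.78, 10.66 and 10.82 in YAP shRNA arrays. The groups did not overlap, with YAP shRNA replicate 4 the nearest to the controls. SLBP fell by 0.20 (standard error 0.046, limma adjusted p = 0.018), a call lost without control replicate 2, YAP shRNA replicate 1 or YAP shRNA replicate 3. CHAF1B, a subunit of the chromatin assembly factor that deposits histones behind the fork, stood at -0.18 (limma adjusted p = 0.065) and was called lower without control replicate 4. Its partner CHAF1A stood at 0.04. UHRF1, which guides maintenance methylation, stood at -0.08, UNG, which removes uracil, at -0.05, and BRCA1 at 0.04.

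Of the G1/S regulators none passed. CCNE1, the cyclin that activates CDK2 at S phase entry, stood at 11.18, 11.25, 11.22 and 11.20 in control arrays and at 11.32, 11.30, 11.27 and 11.32 in YAP shRNA arrays, without overlap (log2 fold change 0.09, 95% interval 0.01 to 0.17, limma adjusted p = 0.12). CCNE2 stood at 0.04 with overlapping groups. E2F1 stood at 10.24, 9.91, 10.08 and 9.99 in control arrays and at 9.97, 9.99, 9.95 and 9.90 in YAP shRNA arrays. These overlapped, with a difference of -0.10 (95% interval -0.26 to 0.06, limma adjusted p = 0.40). Without control replicate 1, the highest array, the difference was -0.04.

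**Figure D3:**
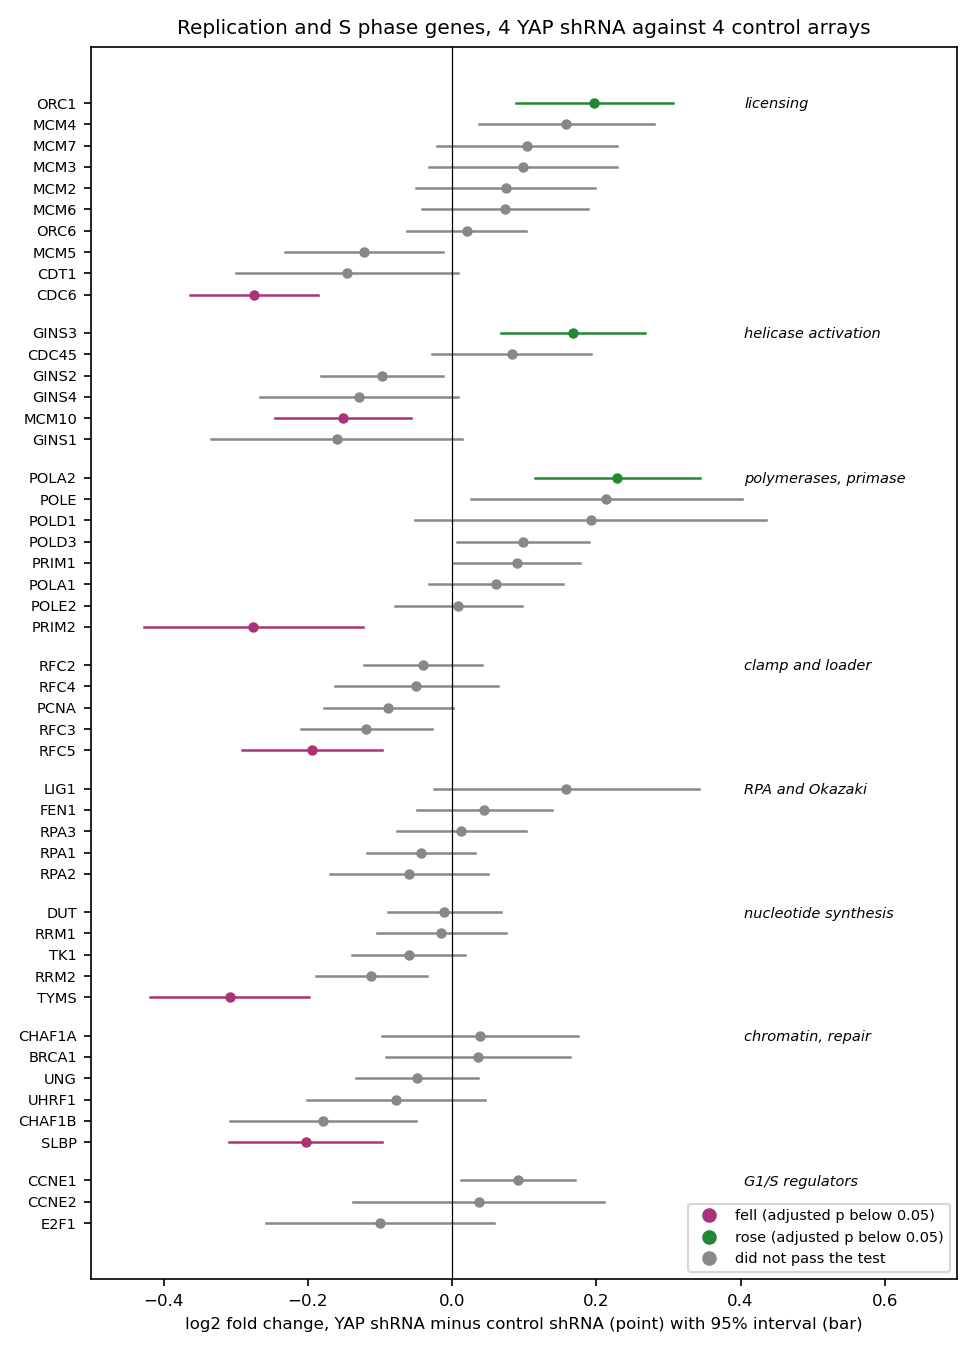
Log2 fold change, YAP shRNA minus control shRNA (points), with its 95% interval from the limma fit (bars), for the 48 genes in 8 groups by role; colours mark the 6 genes that fell, the 3 that rose and the 39 that did not pass. Called genes lie on both sides of 0 within the licensing, helicase and polymerase groups.

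Read as groups, medians differed in sign. The median log2 fold change was 0.07 for licensing, 0.09 for polymerases and primase, 0.04 for the G1/S regulators and 0.01 for single-strand binding and Okazaki maturation. It was -0.11 for helicase activation, -0.09 for the clamp and its loader, -0.06 for nucleotide synthesis and -0.06 for chromatin, repair and histone mRNA. Without control replicate 4, the group medians of licensing, helicase activation, G1/S regulators and the Okazaki group moved to 0.04, -0.08, 0.09 and 0.04. The median of the 3 G1/S regulators was -0.0070 without control replicate 1, 0.01 without control replicate 3 and 0.06 without YAP shRNA replicate 4, and that of the Okazaki group 0.0031 and -0.0047 without control replicates 1 and 3. The differences between groups were not tested. Per array, the median over all 48 gene-centred values was -0.008 to 0.045 in control arrays and -0.016 to 0.002 in YAP shRNA arrays, which overlap, and control replicate 1 was the highest array.

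**Figure D4:**
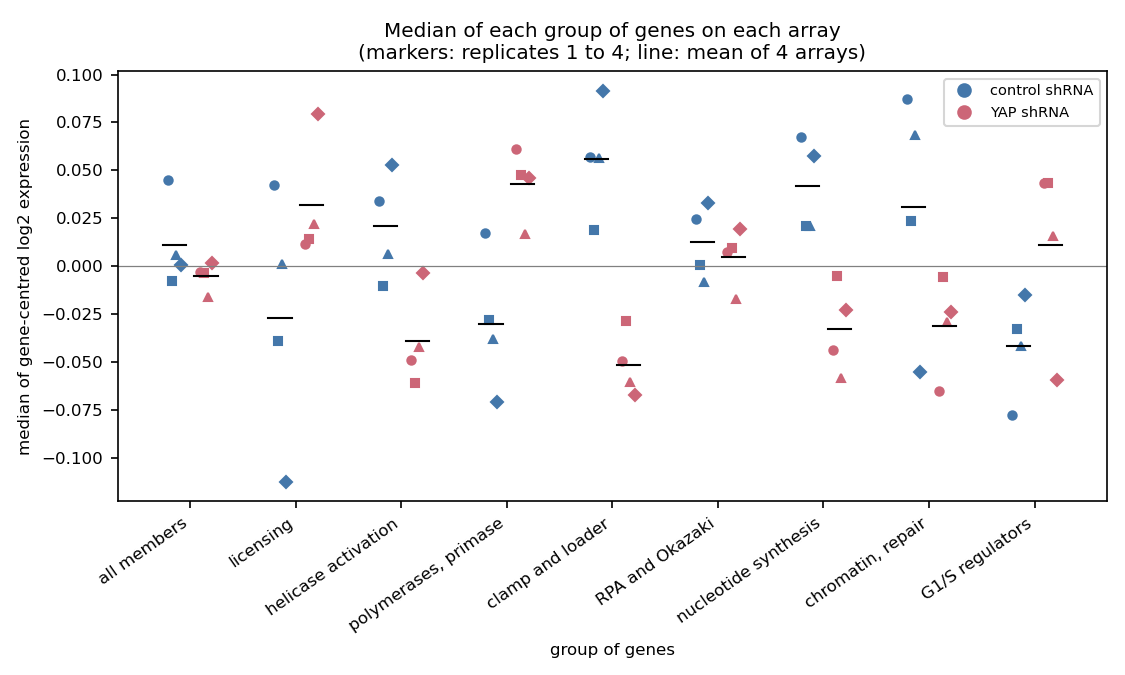
Median of the gene-centred log2 values (vertical axis) of all 48 genes and of each group by role on each array; marker shapes give replicates 1 to 4 and the line the mean of 4 arrays. Control and YAP shRNA arrays overlap for the 48 genes together and do not overlap for nucleotide synthesis or for the clamp and its loader; in the licensing group control replicate 4 is lowest at -0.112 and YAP shRNA replicate 4 highest at 0.080.

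The 48 genes had 90 probe sets. In a fit over all 41097 probe sets with 1 symbol, of which 13.6% were called and 6.62% fell, 8 of the 90 fell and 5 rose. Of the 27 members with several probe sets, 19 had all of them on 1 side of 0, and 8 did not, namely CCNE2, CDT1, CHAF1A, GINS2, GINS4, MCM4, POLD3 and RFC2, none of which was called. Members with an E2F-type match had a median log2 fold change of -0.03 (16 genes, 9 negative) and members without one -0.01 (25 genes, 13 negative). Of the 9 called members, TYMS and POLA2 held a match and moved in opposite directions.

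Factors that surround this machinery also moved in both directions. Of 45 other replication factors, 6 fell and 3 rose, with a median of -0.01. The share of them that changed lay between the 16.7% of all genes and the 26.6% of brighter genes. The 6 falls made 13.3%, beside 7.17% of all genes and 11.4% of brighter genes. FBXO5, an inhibitor of the anaphase-promoting complex that also guards against relicensing, fell by 0.30, DBF4, the activating subunit of the CDC7 kinase that fires origins, by 0.27, and TIPIN of the fork protection complex by 0.25 (limma adjusted p = 0.0036, 0.0061 and 0.0015). POLD4, the smallest subunit of polymerase delta, rose by 0.44, the histone chaperone gene ASF1B by 0.20 and MCMBP, an MCM-binding protein, by 0.16 (limma adjusted p = 0.00091, 0.0087 and 0.022). Of 20 measured genes of nucleotide synthesis besides the members, TK2, the mitochondrial thymidine kinase, rose by 0.27 and none fell. That makes 5.0% changed, below the share of all genes.

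Called genes among the E2F and RB regulators also moved in both directions. Of 29 measured genes of E2F, RB and G1/S control, 4 rose and 3 fell, with a median of 0.04. The 24.1% that changed lie beside 16.7% of all genes and 26.6% of brighter genes. Falls made 10.3%, beside 7.17% of all genes and 11.4% of brighter genes. CDK6, a kinase that inactivates RB, fell by 0.48, E2F6, a repressive E2F, by 0.38 and TFDP2, a dimer partner of E2Fs, by 0.29 (limma adjusted p = 0.00011, 0.014 and 0.0016). E2F5, which works with RBL proteins in repression, rose by 0.39, E2F2, an activating E2F, by 0.34 and RBL2, a pocket protein, by 0.28 (limma adjusted p = 0.000504, 0.0019 and 0.0045).

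Genes of G2 and M phase are given beside them as the other main proliferative programme. Of 31 such genes 7 (22.6%) fell, beside 7.17% of all genes and 11.4% of brighter genes, and 0 rose. Of the 31, 26 were negative, and the median was -0.09, where 25 of the 48 replication genes were negative with a median of -0.01. An unadjusted p under 0.05 was met by 15 of the 31, all lower, where 12.7% of all genes were lower at that level. Of the 9888 brighter genes, 1873 were lower at that level. The steepest falls were 0.26 for CENPA, the centromeric histone, 0.26 for KIF23, a cytokinesis motor, and 0.20 for ANLN, the actin-binding protein anillin (limma adjusted p = 0.0061, 0.032 and 0.0077). Without control replicate 4, 14 of the 31 fell, where 8.25% of all genes fell. Without control replicate 1, 2 or 3 or without YAP shRNA replicate 3 or 4, 4 fell, where 5.15% to 6.04% of all genes did. Without _x_at probe sets 4 of 28 fell, where 7.15% of all genes did. Without _x_at and _s_at probe sets 3 of 21 fell, where 6.38% of all genes did. CENPA was measured by a probe set ending in _x_at, and KIF23 and ANLN by ones ending in _s_at. The difference between the lists was not tested.

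**Figure D5:**
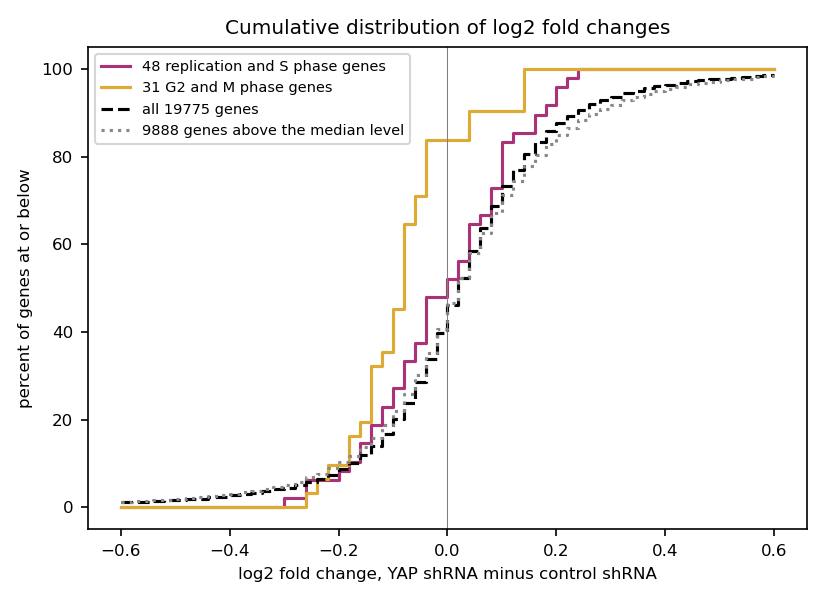
Percent of genes (vertical axis) at or below each log2 fold change (horizontal axis, YAP shRNA minus control shRNA) for the 48 replication and S phase genes, 31 G2 and M phase genes, all 19775 genes and the 9888 genes above the median level. At 0, the curves stand at 52.1%, 83.9%, 46.1% and 46.6%.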

How the data were processed

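The values the authors deposited run from 1.72 to 14.9 and were taken as log2 for that reason. How they corrected background, summarised probes and normalized arrays is not given in the sources used here. Total RNA was amplified and biotin-labelled, per the labels' protocols. Array medians lay within 0.034, so no further normalization was applied. Of 54675 probe sets, 41097 had 1 gene symbol in GEO's platform annotation, 1801 several and 11777 none; 41043 matched RefSeq (GRCh38.p14) by Entrez ID. In 23.8% of probe sets a value recurs exactly on another array.

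Each gene took its probe set with the highest mean. YAP shRNA minus control shRNA was fitted with limma 3.58.1 (R 4.3.3), without a block or filter, with Benjamini-Hochberg adjustment over 19775 genes; "passed" and "called" mean an adjusted p below 0.05. The fit was tested on simulated data. The number of arrays limits precision. Members and lists were chosen with earlier results of these data known. Per-array values are given for called members and the largest change in each group by role, other members as differences, and up to 3 rises and 3 falls of other lists; the array values of MCM4, RRM2, POLE and CCNE1 and the promoters of E2F1 and MCM6 were added after values were seen. Promoters came from RefSeq, and those shown had a single entry in the table. Alternatives covered normalization, dim genes, probe sets, spread models, array weights, a replicate block, thresholds and each array left out. Figures used matplotlib 3.10.9. Counts for the genes of checkpoint and fork repair are not reported here.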

Additional observations from a re-analysis of the deposited data

Results flagged for a closer look

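In 116 groups of 4 arrays, made of the 48 genes, YAP1 and the medians of the groups by role, 7 held an array that stood apart from the rest, and about 5.8 would by chance. Control replicate 4 was low for RFC4, at 12.24 against 12.39 to 12.41, and for LIG1, at 7.52 against 7.84 to 7.89. Control replicate 1 was high for TYMS, at 11.63 against 11.45 to 11.48, and control replicate 3 for YAP1, at 12.77 against 12.59 to 12.61. YAP shRNA replicate 3 was high for POLE, at 7.66 where the others lay at 7.61. YAP shRNA replicate 4 was low for CCNE2, at 10.89 where the others lay at 11.00, and high for the median of the licensing genes, at 0.080 against 0.012 to 0.022. For POLE and CCNE2 the other 3 arrays were nearly equal, and 6 of the 48 genes held a value that recurs exactly on another array.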

How the results depend on the processing

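Of 19 other fits, all kept the median of the 48 genes negative, between -0.021 and -0.0044, and all kept YAP1 called, between -2.20 and -2.10. No called gene turned its sign, and 38 of the 48 kept theirs throughout. None of the 9 calls held in every fit: CDC6, TYMS and POLA2 each lost 1, RFC5 lost 2, ORC1, PRIM2 and SLBP 4 each, GINS3 8 and MCM10 10. Another 8 members were called in 1 or more of these fits: RRM2 in 6, CHAF1B in 5, RFC3 in 4, MCM4, MCM5, POLD3 and CCNE1 in 2 each and GINS2 in 1. Rises and falls numbered 6 and 11 (17 of 47, or 36.2%) without genes below the median level, where 39.3% of all genes were called. With a mean-variance trend they numbered 6 and 9 (15, or 31.25%), where 21.5% of all genes were called. At an adjusted p below 0.01 they numbered 0 and 2 (2 in all), and below 0.1 they numbered 4 and 9 (13 in all). The share of all genes at those thresholds was not counted. With every probe set tested, 5 rose. With a replicate block 0 rose and 2 fell (2 in all), 10.6% of all genes were called and 1 of the 31 G2 and M phase genes fell; same-numbered samples did not deviate together (correlations of -0.17, -0.06, 0.002 and -0.21), no control array correlated best with its own number, and the numbers were not taken to pair samples. With each array left out in turn, changed members ranged from 5 to 10, falls from 3 to 7 and rises from 1 to 3. Over these fits 12.0% to 19.6% of all genes changed and 5.15% to 8.25% fell, and 10.4% to 20.8% of members changed. The helicase activation median was -0.0377 when probe sets were averaged and -0.0810 without _x_at and _s_at probe sets, a setting in which those of nucleotide synthesis and the Okazaki group were -0.1068 and -0.0153. Over single arrays left out, the medians ranged from -0.129 to -0.0809 for helicase activation, -0.0070 to 0.089 for G1/S regulators and -0.0047 to 0.037 for the Okazaki group.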
